A study of Rattus with 12 samples.

Results

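Aquaporins are membrane channels for water, some of which also pass glycerol, and urea transporters are channels that let urea cross cell membranes quickly. In the renal medulla both families serve the concentration of urine. Water leaves thin descending limbs and collecting ducts through aquaporins, and urea is recycled between collecting ducts, thin limbs and vasa recta, the straight vessels of the medulla. The thick ascending limb lies between these structures and is known for reabsorbing salt while staying nearly impermeable to water, so most of these genes serve as markers of other structures in a preparation of that segment.

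The family described here held 9 genes that were chosen by name, namely the aquaporins Aqp1, Aqp2, Aqp3, Aqp4, Aqp6, Aqp7 and Aqp11 and the urea transporters Slc14a1 and Slc14a2. All 9 were found in the gene table by symbol, in 10 of its 42915 rows, because Slc14a2 had 2 rows. RNA came from medullary thick ascending limbs that were selected by hand under a microscope from the digested inner stripe of the outer medulla of male rats, which were 7 weeks old, ate a diet of 0.4% NaCl and had no other treatment. One group of 6 animals was the Dahl salt-sensitive inbred strain SS/JrHsdMcwi (SS). The other 6 animals were consomic rats, SS-Chr 1BN/Mcwi (SS.BN1), a strain that carries the whole SS background except chromosome 1, taken from the Brown Norway rat, and the comparison addresses what exchanging that chromosome does.

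One library was made per animal, but the expression tables hold 1 value per strain and gene. That value is FPKM, the number of sequenced fragments scaled to the length of the transcript and the size of the library, so levels can be set side by side between genes. No value per gene below therefore carries an error between animals, and the spread between animals could not be given for any level or order of levels. The lowest, median and highest library held 47.7, 51.9 and 57.7 M reads in SS and 42.3, 52.7 and 59.8 M reads in SS.BN1 (exact permutation test of the means, two-sided, p = 0.784, adjusted p = 0.784 over 2 measures). The percent of reads mapped was 85.4, 85.8 and 86.4 in SS and 84.4, 85.3 and 85.9 in SS.BN1 by the same 3 measures (exact permutation p = 0.0584, adjusted p = 0.117). Its part in the results below was not tested.

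The labelled segment was checked against its own genes. Slc12a1, the Na-K-2Cl cotransporter that defines the thick ascending limb, stood at 2571 FPKM in SS and 2406 FPKM in SS.BN1. Umod, which encodes the urinary glycoprotein uromodulin, stood at 10174 against 8492 FPKM, and the potassium channel Kcnj1 at 523 against 555. All 12 thick ascending limb markers analysed here were tested and none was listed at 0. In the authors' deposited table none of them had a q under 0.05 or an unadjusted p under 0.05, and their median log2 ratio of SS over SS.BN1 was 0.072.

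Among the family, Aqp1 was higher in SS and Aqp2 was higher in SS.BN1 by the authors' test in their deposited table, where a row is called when q, the p-value adjusted over all tested rows, is under 0.05. The other 7 members missed that threshold. The family thus had 2 calls among its 9 tested rows, beside 3.42% of 13253 tested rows in the whole table. Among rows with a mean of at least 5 FPKM and q adjusted again, 3.81% were called and the same 2 members passed, and at q under 0.01, which 2.22% of rows passed, no member did. Calls toward SS made up 3.32% of the tested rows and calls toward SS.BN1 0.0981%. All 3 members known from the proximal tubule had the higher value in SS, whereas the 4 collecting duct aquaporins and both tested urea transporter rows had the higher value in SS.BN1. Of those 3, Aqp7 and Aqp11 had means of only 1.73 and 1.14 FPKM, near the lower limit of the tested rows. Only Aqp1 therefore shows the direction toward SS at a level well above that limit. In bulk tissue, fewer cells of a type and less RNA per cell cannot be told apart.

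**Figure D1:**
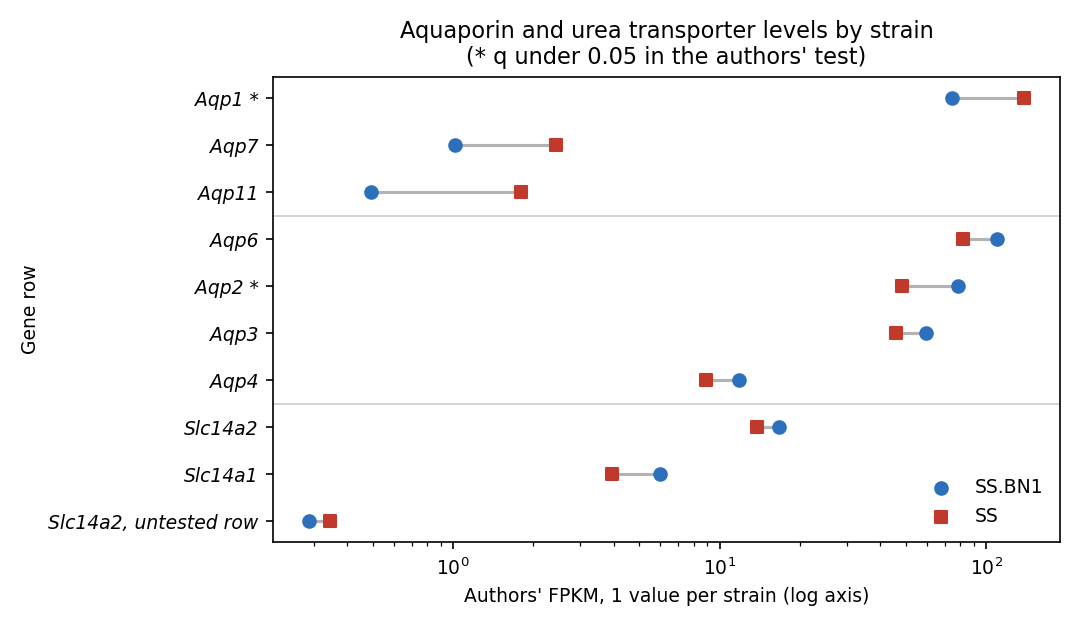
FPKM of each family row on a log axis, with 1 deposited value per strain (squares SS, circles SS.BN1) and an asterisk where q was under 0.05; lines part the proximal tubule, collecting duct and urea transporter members. Aqp1, Aqp7 and Aqp11 have the square to the right, and the 6 other tested rows have it to the left.

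Aqp1, the constitutive water channel of proximal tubules, thin descending limbs, the endothelium of descending vasa recta and red blood cells, led the family in SS. It stood at 138 FPKM in SS and 74.1 FPKM in SS.BN1, a 1.87-fold difference (log2 ratio 0.90), with p = 0.00085 and q = 0.0290 in the authors' deposited table. The SS value was the higher one, and the level was high among all genes, since Aqp1 ranked 580 of 13253 tested rows by the mean of its strain values. Among the 9064 tested rows with a mean of at least 5 FPKM, 323 had a higher log2 ratio than Aqp1. Relative to Slc12a1, the Aqp1 level was 5.39% in SS and 3.08% in SS.BN1.

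Aqp7, an aquaglyceroporin of the brush border in the straight part of the rat proximal tubule, was present at a low level, 2.44 FPKM in SS and 1.02 FPKM in SS.BN1. Its log2 ratio of 1.26 did not pass, with p = 0.343 and q = 1.00 in the authors' deposited table. Aqp11, an intracellular aquaporin of proximal tubule cells, had the largest ratio of the family and the lowest tested level. It stood at 1.79 FPKM in SS and 0.494 FPKM in SS.BN1 (log2 ratio 1.86), with p = 0.0182 and q = 0.318 in the authors' deposited table. At rank 13235 of 13253 by level, Aqp11 lay near the lower limit of what was tested, and adding 1 FPKM to both values took its log2 ratio to 0.90. It was the 1 member on chromosome 1, which SS.BN1 takes from the Brown Norway rat (162703442 to 162713610, coordinates as deposited, of a build that is not settled), and the other 8 lay on chromosomes that both strains take from SS.

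Aqp2, the vasopressin-regulated water channel that is inserted into the apical membrane of principal cells, stood at 48.1 FPKM in SS and 78.3 FPKM in SS.BN1. The SS.BN1 value was 1.63-fold higher (log2 ratio of SS over SS.BN1 -0.70), with p = 0.00095 and q = 0.0318 in the authors' deposited table. Of the 9064 tested rows with a mean of at least 5 FPKM, 41 had a lower log2 ratio. As a share of Slc12a1, Aqp2 made up 1.87% in SS and 3.26% in SS.BN1. The largest p that still passed in the authors' deposited table was 0.0017.

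Aqp3 and Aqp4 form the basolateral exit for water in principal cells, and Aqp3 passes glycerol as well. Aqp3 stood at 45.9 FPKM in SS and 59.4 FPKM in SS.BN1 (log2 ratio -0.37), with p = 0.0638 and q = 0.767 in the authors' deposited table. Aqp4 was less abundant, at 8.90 against 11.9 FPKM (log2 ratio -0.41), with p = 0.0584 and q = 0.729 in the authors' deposited table. Neither passed the threshold, and in both the SS.BN1 value was the higher one. The Aqp2 level was 1.05 times that of Aqp3 in SS and 1.32 times in SS.BN1.

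Aqp6, an aquaporin of intracellular vesicles in acid-secreting intercalated cells that also conducts anions, was among the 2 most abundant members in each strain. It stood at 82.0 FPKM in SS and 109 FPKM in SS.BN1, where it was the highest of all members. The log2 ratio of -0.41 missed the threshold, with p = 0.0685 and q = 0.799 in the authors' deposited table. The band 3 exchanger Slc4a1, which acid-secreting intercalated cells also carry, stood at 55.8 against 69.7 FPKM, below Aqp6 in both strains.

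The urea transporters were lower than the 4 leading aquaporins. Slc14a1, the urea channel of descending vasa recta and red blood cells, stood at 3.95 FPKM in SS and 5.97 FPKM in SS.BN1 (log2 ratio -0.60), with p = 0.0692 and q = 0.802 in the authors' deposited table. Slc14a2 encodes the epithelial urea transporters of thin descending limbs and inner medullary collecting ducts, which arise from 1 gene by different promoters and splicing. Its tested row stood at 13.8 against 16.6 FPKM (log2 ratio -0.26), with p = 0.222 and q = 1.00 in the authors' deposited table. Neither urea transporter passed, so a difference between the strains was not detected for them. Aqp3, Aqp4, Aqp6 and Slc14a1 had unadjusted p from 0.0584 to 0.0692 and q from 0.729 to 0.802 by the authors' test, and none of them was called. The share of all tested rows in that range of p was not counted, so nothing is read from it.

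The summed level of the 7 aquaporins was nearly equal, at 328 FPKM in SS and 335 FPKM in SS.BN1, but its make-up differed. Aqp1 supplied 42.3% of the sum in SS and 22.2% in SS.BN1. Aqp2, Aqp3 and Aqp4 together supplied 31.4% in SS and 44.7% in SS.BN1, and Aqp6 supplied 25.0% and 32.7%. In SS the order from the top was Aqp1, Aqp6, Aqp2 and Aqp3, and in SS.BN1 it was Aqp6, Aqp2, Aqp1 and Aqp3. Below these came the tested Slc14a2 row, Aqp4, Slc14a1, Aqp7 and Aqp11 in both strains. With 1 value per strain, which neighbours in these orders differ beyond the spread between animals cannot be given.

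**Figure D2:**
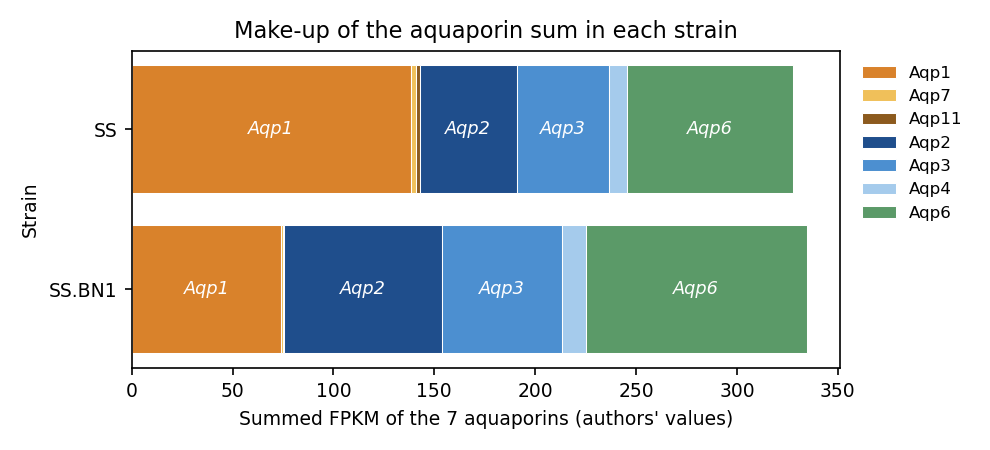
Stacked FPKM of the 7 aquaporins in each strain, from the authors' values. The bars end at 328 FPKM in SS and 335 FPKM in SS.BN1, and the Aqp1 part covers 42.3% of the bar in SS and 22.2% in SS.BN1.

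Each member was then set beside the other markers of the cells it is known from, with the family left out of each list. The lists were chosen with earlier results of these data known, so their counts are description and no independent evidence. Of 20 other proximal tubule genes, 14 were tested, each of the 14 was higher in SS by value and 10 were called in that direction, with a median log2 ratio of 1.28. Among all 13253 tested rows, 6662 were higher in SS by value and 3.32% were called in that direction. The summed level of the 20 genes was 463 FPKM in SS and 187 FPKM in SS.BN1. The ratio of Aqp7 (1.26) lay near this median, and that of Aqp1 (0.90) lay below it. The list was led by Kap, an androgen-regulated kidney protein, at 290.3 against 120.5 FPKM, and the cystine carrier Slc7a13 of the straight proximal tubule at 96.2 against 31.1. Slc5a2 and Slc5a12, glucose and lactate carriers of the convoluted part, were near 0 and not tested. Slc5a2 had 0.204 FPKM in SS against 0.153 in SS.BN1, and Slc5a12 had 0.0328 against 0.0906, the higher value being in SS.BN1.

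The other called proximal tubule genes in the authors' deposited table were the phosphate carrier Slc34a1 (8.14 FPKM in SS against 3.40 in SS.BN1, q = 0.0208), the endocytic receptors Lrp2 (7.86 against 2.83, q = 0.00266) and Cubn (2.04 against 0.872, q = 0.00266), the urate transporter Slc22a12 (7.11 against 1.98, q = 0.00266) and the organic anion carrier Slc17a3 (2.02 against 0.558, q = 0.00705). The gluconeogenic enzyme Pck1 (4.60 against 1.79 FPKM, q = 0.0140), the fatty acid carrier Slc27a2 (3.75 against 1.27, q = 0.0454) and a joined row holding the inositol-degrading enzyme Miox (22.4 against 10.2, q = 0.0304) completed the calls in the authors' deposited table. Aqp1 exceeded all of these except Kap in both strains. Among the called genes of this list, Slc22a12 lies on chromosome 1, the exchanged one, and the part of that was not tested.

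The thin limb list had fewer calls and is reported in part, since some of its genes are not analysed here. Of 9 genes outside the family, 6 were tested, with a median log2 ratio of 0.39. Each of the 6 had the higher value in SS and 1 was called, while 3.32% of all tested rows were called in that direction. The called gene, which also had the highest mean of both strains, was Cldn4, a tight junction protein, with 426 against 80.6 FPKM (q = 0.00266, the authors' deposited table). The summed level of these 9 genes was 627 FPKM in SS and 239.9 FPKM in SS.BN1, of which Cldn4 alone supplied 426 and 80.6 FPKM. Slc14a2, itself a thin limb marker, had the higher value in SS.BN1, on the other side of 0 from Aqp1. Leaving genes out can change such counts, so nothing is read from the list's share in 1 direction.

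**Figure D3:**
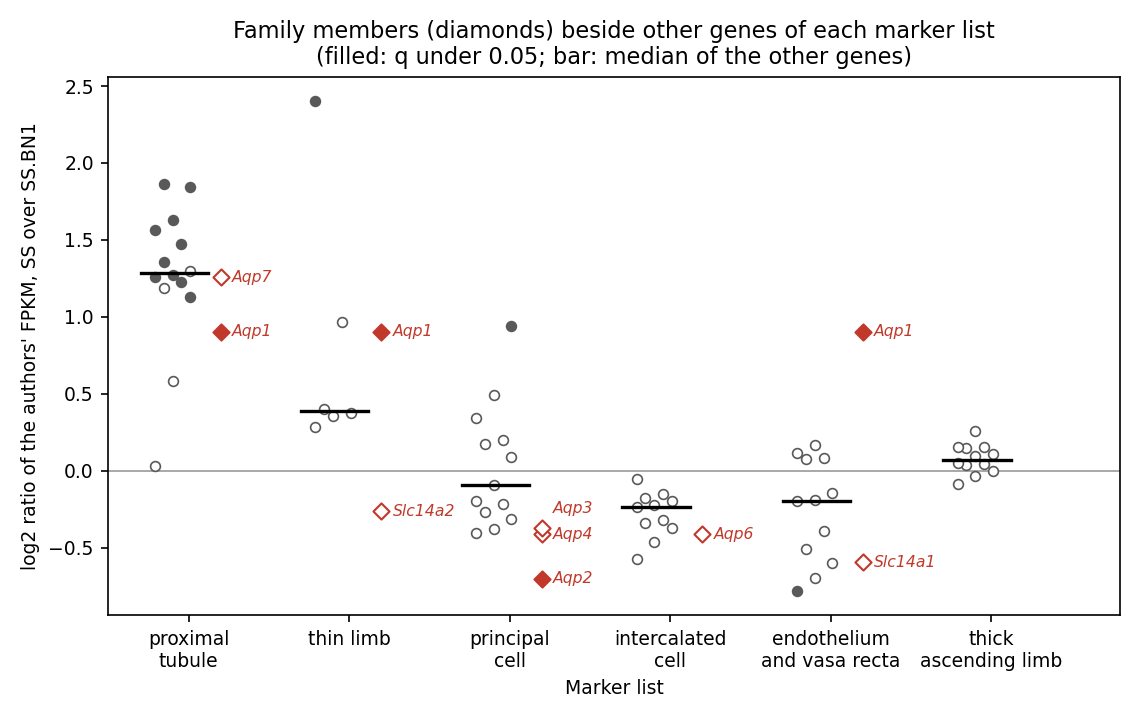
Log2 ratio of SS over SS.BN1 from the authors' FPKM for family members (diamonds) and the other tested genes of 6 marker lists (circles), filled where q was under 0.05; bars are medians of the circles. Aqp7, with a mean of only 1.73 FPKM and no call, lies near the proximal tubule median of 1.28. Aqp2 lies below every other principal cell gene, and Slc14a1 lies below the endothelial median of -0.20.

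Principal cell markers outside the family showed no common direction. Of 13 tested genes, 6 had the higher value in SS and 7 in SS.BN1, and the median log2 ratio was -0.10. Their summed level was 480.2 FPKM in SS and 464 FPKM in SS.BN1. Tspan8, a tetraspanin with the highest level among them, had 166 against 147 FPKM, and Fxyd4, a regulator of the sodium pump, at 85.0 against 90.8. The 1 call was Krt18, an epithelial keratin, higher in SS (15.1 against 7.89 FPKM, q = 0.0318 in the authors' deposited table). Of all tested rows, 3.32% were called in that direction. Hsd11b2, the enzyme that shields the mineralocorticoid receptor from glucocorticoids, had the lowest ratio of the 13, at 54.8 against 72.6 FPKM (log2 ratio -0.40, p = 0.0498 and q = 0.659 in the authors' deposited table). Krt8, another keratin, had the higher value in SS (41.0 against 29.1 FPKM, log2 ratio 0.49, p = 0.0205 and q = 0.346 in the authors' deposited table). With Krt18 these made 3 of the 13 with an unadjusted p under 0.05, beside 1000 of all 13253 tested rows. The log2 ratios of Aqp2, Aqp3 and Aqp4 ran from -0.70 to -0.37.

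The tested intercalated cell markers had the higher value in SS.BN1, as Aqp6 did, without a call. Among all 13253 tested rows, 6591 had the higher value in SS.BN1. The untested Slc26a4, an anion exchanger, and Insrr, a receptor kinase, were near 0 and had the higher value in SS (0.0949 against 0.0656 and 0.0180 against 0.0101 FPKM). Of all 13253 tested rows, 3.42% had a q under 0.05 in the authors' deposited table and 1000 had an unadjusted p under 0.05. Of 11 tested genes outside the family none had such a q, and 1 had such a p. That gene was Foxi1, the transcription factor of intercalated cells, at 5.79 against 8.60 FPKM (log2 ratio -0.57). The log2 ratios of the list had a median of -0.24, and its summed level was 204 FPKM in SS and 251 FPKM in SS.BN1. The part of either collecting duct cell type in the family's ratios was not tested.

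Endothelial markers, set beside Slc14a1 and Aqp1, had a median log2 ratio of -0.20 over 12 tested genes, of which 8 had the higher value in SS.BN1. Of the 12, 4 had an unadjusted p under 0.05 in the authors' deposited table, each with the higher value in SS.BN1. Among all 13253 tested rows, 6591 had the higher value in SS.BN1 and 1000 had an unadjusted p under 0.05 in either direction. Esam, an adhesion molecule of vessels with the highest mean of both strains among them, stood at 48.7 FPKM in SS and 43.4 FPKM in SS.BN1. The 1 call was Tek, the angiopoietin receptor, with 6.78 against 11.6 FPKM (q = 0.0221, the authors' deposited table), a direction in which 0.0981% of all tested rows were called. The summed level was 179 FPKM in SS and 225 FPKM in SS.BN1, so Aqp1 had the opposite direction to the sum and Slc14a1 had the same. Of the red blood cell genes 3 were tested and none had an unadjusted p or a q under 0.05 in the authors' deposited table. Hba-a1, an alpha globin, stood at 83.6 against 82.8 FPKM, whereas Hba-a2 (36.6 against 36.9) and Hbb (38.2 against 45.5) had the higher value in SS.BN1. Of the urothelial genes Upk1a alone was tested, at 5.67 against 5.87 FPKM, and Upk3b was listed at 0 in both strains.

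Likeness to the called members was measured as the distance in log2 ratio over the 72 tested marker genes outside the family, which rests on 2 strain values only. Nearest to Aqp1 were Krt18, the activin-binding protein Fst (17.5 against 8.94 FPKM) and the joined Miox row, at distances of 0.035, 0.063 and 0.23. Nearest to Aqp2 were 3 endothelial genes, Plvap (32.0 against 51.8 FPKM), Tek and Emcn (24.4 against 36.9), at distances of 0.0044, 0.079 and 0.10. These neighbours come from lists of other cell types than the ones in which Aqp2 is placed. Krt18, the nearest to Aqp1, likewise comes from the principal cell list, which does not hold Aqp1, whereas Fst and Miox come from lists that do.

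Upstream of Aqp2, vasopressin acts through the receptor Avpr2 and cyclic AMP. Avpr2 stood at 31.0 FPKM in SS and 37.4 FPKM in SS.BN1 (log2 ratio -0.27, q = 1.00 in the authors' deposited table), and Gnas, the stimulatory G protein subunit, at 109.6 against 110.2. Of 22 tested genes of the list, 11 had the higher value in each strain, 3 were called, all higher in SS (3.32% of all tested rows were called in that direction and 0.0981% in the other), and the log2 ratios had a median of -0.0038 beside 0.0011 for all tested rows. The calls were the kinase-anchoring protein Akap12 (10.9 against 2.52 FPKM, q = 0.00266), the epithelial ETS factor Elf3, which had the highest mean level of the list (167 against 98.0, q = 0.0221) and a joined row holding the cyclic AMP phosphodiesterase Pde4b (6.29 against 1.87, q = 0.00266) in the authors' deposited table. Akap12 lies on chromosome 1, the exchanged one, and the part of that was not tested.

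The response to high osmolality, which raises organic osmolytes in medullary cells, passed no test. Of 9 tested genes none had a q under 0.05 in the authors' deposited table, 1 had an unadjusted p under 0.05, and the median log2 ratio was 0.16. Among all 13253 tested rows, 3.42% had such a q and 1000 had such a p. Nfat5, the transcription factor of that response, stood at 72.5 FPKM in SS and 75.8 FPKM in SS.BN1. The gene with the low p was the betaine carrier Slc6a12, in a row joined with Slc6a13 (41.8 against 57.2 FPKM, p = 0.0275, q = 0.427 in the authors' deposited table). Slc38a2, an amino acid carrier and the most abundant of the list, stood at 127 against 94.5 FPKM (q = 0.669 in the authors' deposited table). The remaining aquaporins were near or at 0: of 5 found by symbol none was tested, and the highest, the lens aquaporin Mip, stood at 0.975 against 0.906 FPKM.

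**Figure D4:**
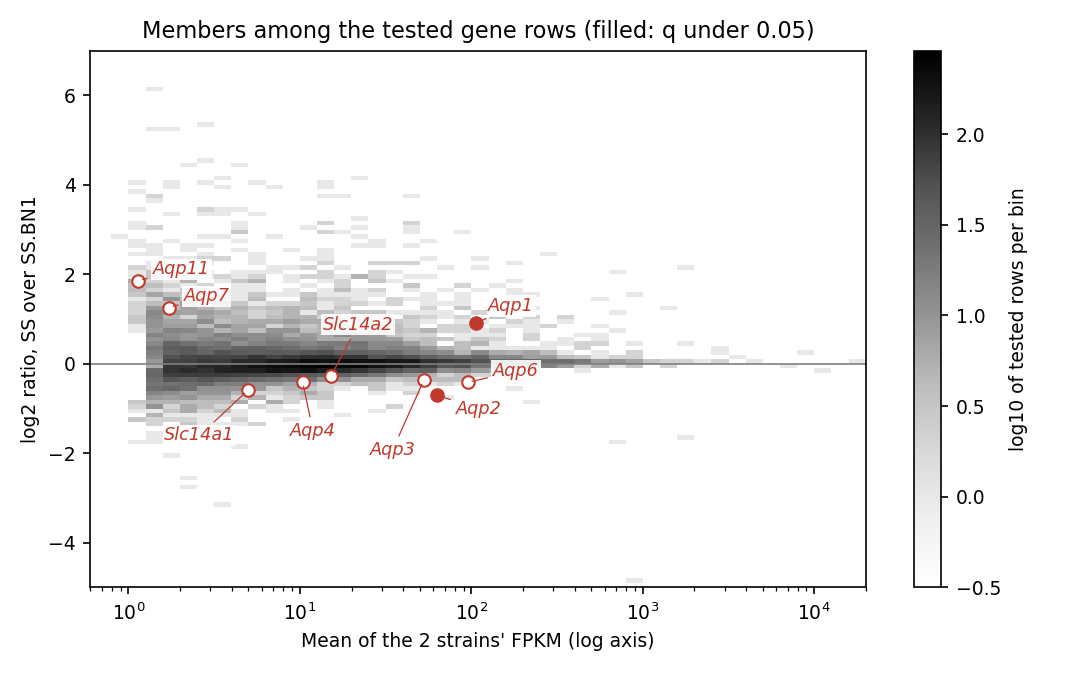
Log2 ratio of SS over SS.BN1 against the mean of the strains' FPKM for the 9 tested family rows (circles, filled where q was under 0.05) over the density of the tested rows that fall within the axes (grey). Aqp1 and Aqp2 lie above and below the dense band at high levels, and Aqp7 and Aqp11 lie at the low-level edge.

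Isoforms were read from the authors' second table, in which the family's rows held 25 isoforms, 14 of them tested. None had a q under 0.05 in the authors' deposited table, 3 had an unadjusted p under 0.05, and 1.05% of 23688 tested isoforms in the whole table were called. The share of all tested isoforms with an unadjusted p under 0.05 was not counted. A single annotated isoform carried 100% of Aqp1 at 138 against 74.1 FPKM, and its q was 0.0717 in the authors' deposited table. The annotated Aqp2 isoform stood at 46.8 FPKM in SS and 73.8 FPKM in SS.BN1 (p = 0.0029 and q = 0.183 in the authors' deposited table), and an assembled isoform without annotation added 1.33 against 4.58. Gene values are sums of these isoforms, so they are no separate evidence.

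Other members were divided among isoforms or rows. The leading isoform made up 55.9% of Aqp4, 77.7% of Slc14a1 and 58.0% of Aqp7 in SS, and 47.1%, 72.1% and 61.7% in SS.BN1, and the rest of Aqp7 was an assembled isoform without annotation. For Aqp6, an isoform assembled from the reads, without annotation, supplied 42.6 FPKM in SS and 59.7 FPKM in SS.BN1, more than the annotated one at 34.9 against 43.9. It made up 51.9% of the gene in SS and 54.7% in SS.BN1. Slc14a2 had a tested row of 34.0 kb (chromosome 18, 74508069 to 74542077 as deposited) and an untested row of 142 kb that began 4.14 kb further on. The untested row stood at 0.345 FPKM in SS and 0.288 FPKM in SS.BN1, so the shorter row was 40.1 times as high in SS and 57.7 times in SS.BN1. The files do not say which of the gene's products each row stands for.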

How the data were processed

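Stranded total-RNA libraries of 6 SS and 6 SS.BN1 rats were sequenced in pairs, per the labels' protocols. Per the submitters' processing notes, the tools were TopHat2 2.1.1, Cufflinks 2.2.1, StringTie, cutadapt and FastQC and the build rn5, without their roles. The deposited gene and isoform tables hold the authors' FPKM, 1 per strain, with their p-value and q-value per row; no source used here says how libraries were combined. A further deposited table gives the read count and the percent of reads mapped of each library, per the file headers.

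Rows were matched by symbol, with joined names split at commas; a list gene takes its tested row of highest mean FPKM. Log2 ratios were computed from the authors' FPKM without a pseudocount. Calls use the authors' q under 0.05; Benjamini-Hochberg adjustment of their p over 13253 rows gave their q to within 5.27e-07. Strain means of reads and percent mapped were compared over all 924 assignments of an exact permutation test (smallest p 0.00216). Deposited starts had 1 added.

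Members and lists were chosen with earlier results of these data known. Named genes were all members, 3 thick ascending limb genes, the gene of highest mean FPKM and every called gene of each list, and the 3 nearest genes to each called member. Aqp5, Fxyd4, Gnas, Slc26a4, Insrr, Slc5a2, Slc5a12, Hsd11b2, Krt8, Foxi1, Slc6a12, Nfat5, Avpr2, Upk3b, Hba-a2 and Hbb were named after their values were seen. Symbols without a row were left out, and some list genes are not reported here. Adjustment code was tested on simulated p-values. The software was matplotlib 3.10.9, SciPy 1.17.1, pandas 2.3.3 and NumPy 2.4.6 under Python 3.11.15.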

Additional observations from a re-analysis of the deposited data

How the results depend on the processing

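Over 80 recomputed log2 ratios of the 10 family rows (pseudocounts of 1 and 0.1, quantile normalization, median centring, leaving out mitochondrial rows, summed isoforms, rows naming the member alone, and a ratio to Slc12a1 added after the data were seen), all 80 kept their sign. This was largely fixed in advance, because pseudocounts, summed isoforms and rows naming the member alone could not change a sign. With a pseudocount of 1 the log2 ratio of Aqp11 went from 1.86 to 0.90, that of Aqp7 from 1.26 to 0.77 and that of the untested Slc14a2 row from 0.26 to 0.063. Taken as folds, 1 of the 80 moved by over 1.5 times, that of Aqp11. Aqp1 ran from 0.76 to 0.90 and Aqp2 from -0.82 to -0.69. Leaving out mitochondrial rows shifted every log2 ratio by -0.11, and the ratio to Slc12a1 took 0.096 from each. Both shifts were smaller in size than the smallest ratio of the family, 0.26, so neither could change a sign. The 2 calls were kept among rows with a mean of at least 5 FPKM (readjusted q = 0.0258 for Aqp1 and 0.0284 for Aqp2). They were also kept at a mean of at least 1 FPKM. With q under 0.01, 0 members were called, since q was 0.0290 for Aqp1 and 0.0318 for Aqp2 in the authors' deposited table. By isoform, 0 members were called by the authors' test. The Aqp1 isoform had the same unadjusted p as its gene row. Its q was 0.0717 among 23688 tested isoforms, beside 0.0290 among 13253 tested gene rows, in the authors' deposited tables. The annotated Aqp2 isoform had a larger unadjusted p than its gene row, and the cause of that was not tested. Medians of the marker lists kept their sign. The difference in library reads, 0.769 M by means, was -0.732 M by medians (exact permutation p = 0.727). No paired analysis was possible because the labels give no shared replicate numbers and the tables hold 1 value per strain, so leaving out an animal could not be tried either. Low levels limit Aqp7, Aqp11 and the untested Slc14a2 row.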

Other observations

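Members that lie next to each other had different directions at 1 locus and the same direction at 2. Aqp7 and Aqp3 lie 51.5 kb apart on chromosome 5 as deposited, with log2 ratios of SS over SS.BN1 of 1.26 and -0.37. Aqp2 and Aqp6 lie 13.4 kb apart on chromosome 7, with ratios of -0.70 and -0.41. Aqp5, an aquaporin of glands whose row lies between them, stood at 0.0609 FPKM in SS and 0.0415 FPKM in SS.BN1 and was not tested. Slc14a1 and the tested Slc14a2 row lie 22.9 kb apart on chromosome 18, with ratios of -0.60 and -0.26. The Aqp1 level was 2.88 times that of Aqp2 in SS and 0.946 times in SS.BN1. None of these differences between members was tested.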
